A study of Homo sapiens with 24 samples.

Results

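The interleukin-1 family is described here by 6 genes, taken as the rows of the deposited expression table that carry the symbols IL1A, IL1B, IL1RN, IL18, IL1R1 and IL1RAP. All 6 were found among 38849 genes, and 5 were abundant enough to test. IL1RN had a mean of 9.35 over all libraries, just under the minimum mean of 10 that was set for testing. The cells were HMLE, an immortalized human mammary epithelial line, made to express either RBMS3, an RNA-binding protein drawn to AU-rich sequence, or LacZ, a bacterial enzyme used as the control. Both lines received actinomycin D, which blocks transcription, at 10 µg/mL, and were sampled at 0, 90, 180 and 360 min. All groups grew in medium with serum, EGF, insulin and hydrocortisone, a steroid that dampens inflammatory genes. Each line and time has 3 libraries, 24 in all, made from the 3′ ends of polyadenylated RNA. The groups are thus RBMS3 cells at 4 times and LacZ cells at 4 times, and the 0 min libraries are the untreated state of each line. The labels name neither the construct and promoter that drove RBMS3 or LacZ nor whether a line was 1 clone, and separate cultures behind the 3 libraries are not stated. The p-values therefore rest on spread that could be purely technical.

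Interleukin-1 alpha and beta are inflammatory cytokines that bind the receptor IL1R1, which signals only once the accessory chain IL1RAP joins it. IL1RN encodes an antagonist that occupies IL1R1 without recruiting the accessory chain, and IL18 encodes a related cytokine that uses another receptor pair. Signalling runs through MYD88 and the IRAK kinases to NF-kB, whose target transcripts include chemokines and its own inhibitors. In epithelia, interleukin-1 alpha is held ready inside the cell and released on damage, whereas interleukin-1 beta and interleukin-18 are made as precursors and cut by caspase-1. Cytokine transcripts often carry copies of the pentamer AUUUA in the 3′ untranslated region (UTR), a feature of messages with a short life.

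In the GENCODE 29 annotation of GRCh38, IL1A-201 lies on the minus strand at chr2:112773915-112784590, IL1B-201 on the minus strand at chr2:112829751-112836903 and IL1RN-202 on the plus strand at chr2:113117897-113134016. IL1R1-205 is also on chromosome 2, on the plus strand at chr2:102142786-102179874. IL18-202 is on the minus strand at chr11:112143253-112164074 and IL1RAP-201 on the plus strand at chr3:190514051-190651519. These were the coding transcripts with the most reads of each gene in the 12 libraries whose transcript files could be used. The 30-base windows below are shown because the time course followed transcripts after transcription was blocked, and because AU-rich RNA is what RBMS3 binds. Each is the 3′ UTR window with the most ATTTA pentamers, or the richest in A and T where there was none, and capitals mark ATTTA.
IL1A, UTR bases 614 to 643 of 1152: tATTTAtatatgtATTTAtaaatatATTTA
IL1B, UTR bases 345 to 374 of 610: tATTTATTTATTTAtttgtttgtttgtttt
IL1RN, UTR bases 456 to 485 of 1145: aaaatgaaaattaggatttcatgatttttt
IL18, UTR bases 299 to 328 of 343: aaaaaataaaataaataaataaacaaataa
IL1R1, UTR bases 1664 to 1693 of 3115: ttATTTAatttttgcaattattctaatttt
IL1RAP, UTR bases 2550 to 2579 of 2814: taattacaaaatcatatacgATTTATTTAa
Over the whole UTR, ATTTA occurred 5 times in IL1A, 6 times in IL1B, 8 times in IL1R1 and 15 times in IL1RAP, and was not found in IL1RN or IL18. ATATA, a motif linked to the RBMS family, occurred 5 times in IL1A, 2 times in IL1B, 3 times in IL1R1 and 25 times in IL1RAP. In the last 300 bases of the UTR, where 3′ reads fall, IL1B had all 6 of its ATTTA copies, IL1RAP had 4, IL1R1 had 2 and IL1A had 0 of ATTTA and 0 of ATATA; 3 copies of the octamer TATTTATT overlapped those of IL1B. Of 9182 tested genes with a UTR of at least 300 bases, 49.6% had ATTTA and 36.0% had ATATA in the last 300 bases. The medians over whole UTRs were 3 copies of ATTTA and 2 of ATATA, and 31.1% of these genes had at least as many ATTTA as IL1B. A match is a description of letters and shows no binding.

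IL1A, IL1B and IL1RN lie within one cluster on chromosome 2 and, were low in the same libraries, so their promoters are given too. Each runs from 250 bases before to 50 bases after a transcript start in RefSeq on GRCh38.p14, the one nearest to the start of the transcript with the most reads, read 5′ to 3′ along the gene. Capitals mark matches on either strand to the AP-1 site TGANTCA or the TATA box TATAAA; the NF-kB site was also searched by name.
IL1A, minus strand, chr2:112784444-112784743: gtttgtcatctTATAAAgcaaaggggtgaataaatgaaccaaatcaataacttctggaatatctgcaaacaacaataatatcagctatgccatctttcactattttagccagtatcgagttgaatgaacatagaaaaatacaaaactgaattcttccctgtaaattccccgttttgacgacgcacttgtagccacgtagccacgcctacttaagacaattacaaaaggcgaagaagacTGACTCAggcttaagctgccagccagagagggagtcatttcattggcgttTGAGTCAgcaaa
IL1B, minus strand, chr2:112836730-112837029: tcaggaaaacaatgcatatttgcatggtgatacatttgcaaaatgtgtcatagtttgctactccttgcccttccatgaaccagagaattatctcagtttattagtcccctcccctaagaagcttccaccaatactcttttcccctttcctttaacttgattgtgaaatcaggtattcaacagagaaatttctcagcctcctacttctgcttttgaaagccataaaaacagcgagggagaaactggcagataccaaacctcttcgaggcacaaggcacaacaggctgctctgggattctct
IL1RN, plus strand, chr2:113117721-113118020: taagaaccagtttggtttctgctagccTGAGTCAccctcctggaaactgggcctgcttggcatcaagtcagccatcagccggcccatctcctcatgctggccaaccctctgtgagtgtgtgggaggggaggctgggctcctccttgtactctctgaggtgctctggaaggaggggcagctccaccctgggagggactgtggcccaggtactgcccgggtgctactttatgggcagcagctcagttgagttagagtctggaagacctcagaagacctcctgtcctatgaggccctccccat
IL1A had 2 AP-1 matches and 1 TATA box, IL1RN had 1 AP-1 match, and IL1B had none of the 3 motifs in this window. Other starts listed for these genes differ: a second IL1A window had the 2 AP-1 matches and no TATA box, and of 2 further IL1RN windows 1 had 2 overlapping TATA box matches. Among 35116 RefSeq promoters of the same length, 7.71% held the AP-1 site, 11.5% the TATA box and 11.3% the NF-kB site.

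Values are the authors' normalized counts, meant to be compared between libraries for 1 gene and not between genes. For IL1R1 and IL1RAP their ratio to the reads also varied between libraries, by up to 2.59-fold and 6.24-fold, as described below. They were read from table columns matched to sample titles; for 12 of the 24 samples the attached transcript file carries another sample's name, and those files were not used. For all 24 files the most alike table column was the one with the file's own name (r of 0.922 to 0.941, next best at most 0.913). Implied depth ranged from 4417390 to 9982520 reads, with 14193 to 15697 genes detected in a library. The RBMS3 transcript was 174 to 358 in the 12 RBMS3 libraries and 27.6 to 165 in the 12 LacZ libraries, so the lines did not overlap in the gene that was introduced. The label of an epithelial cell was checked with 6 epithelial markers, whose summed level was 2271 to 9289 in RBMS3 libraries and 9475 to 13905 in LacZ libraries. The sum of 6 mesenchymal markers was 37771 to 50818 in RBMS3 libraries and 7417 to 10222 in LacZ libraries, and that of 5 fibroblast markers was 3115 to 4199 in RBMS3 libraries and 803 to 1130 in LacZ libraries. Of the epithelial markers, 4 were lower and 1 was higher in RBMS3 cells at 0 min, and all 6 were lower at 360 min. At 0 min EPCAM averaged 0.707 in RBMS3 cells and 1716 in LacZ cells, ESRP1 0 and 903, CDH1 7.90 and 319, and LAMB3 471 and 2637. KRT14, which went the other way, averaged 6059 in RBMS3 cells and 2555 in LacZ cells, so the sum does not show how low the first 3 were. All 6 mesenchymal markers were higher at both times. Of the 5 fibroblast markers 3 could be tested, and THY1 made up most of the sum. At 0 min THY1 averaged 3800 in RBMS3 cells and 963 in LacZ cells, DCN 168 and 1.15, and PDGFRB 50.2 and 0.515. At 90 min DCN averaged 34.8 and PDGFRB 7.29 in RBMS3 cells. PDGFRA and LUM were at 0 in every LacZ library and were under the minimum mean over all libraries, so they were not tested. The 7 markers of leukocytes or monocytes, which are common sources of interleukin-1, summed to 18.6 to 56.0 in RBMS3 libraries and 38.7 to 99.0 in LacZ libraries. Of these, TYROBP was at 0 in every library of both lines, and the pan-leukocyte gene PTPRC was at 0 in every RBMS3 library. The 4 endothelial markers summed to 0 to 11.1 in RBMS3 libraries and 0 to 8.79 in LacZ libraries, with CDH5 at 0 in both lines. Too few endothelial markers were expressed to test, and limma called 1 of the 2 leukocyte or monocyte markers that could be tested, lower in RBMS3 cells. The epithelial, mesenchymal and fibroblast lists moved with the interleukin-1 genes described below, and their part in those results was not tested.

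RBMS3 cells lacked almost all transcript of the agonists IL1A and IL1B at every time, while LacZ cells held at least 246 normalized counts of IL1A and 264 of IL1B in every library. IL1R1, the receptor, was higher in RBMS3 cells at every time. At 0 min limma called IL1R1 higher and 2 of the 5 tested members lower, where 37.5% of all tested genes were called (18.6% higher, 18.9% lower). At 90 min, IL1R1 was again the higher one and 3 members were lower, with 29.8% of all tested genes called (14.9% higher, 15.0% lower). At 180 min the calls were 1 higher and 2 lower, with 33.1% of all tested genes called (16.2% higher, 16.8% lower). At 360 min they were 1 higher and 3 lower, with 35.2% of all tested genes called (17.5% higher, 17.7% lower). A call is an adjusted p under 0.05 on log2(normalized count + 1) after Benjamini-Hochberg adjustment over all 12096 tested genes.

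**Figure D1:**
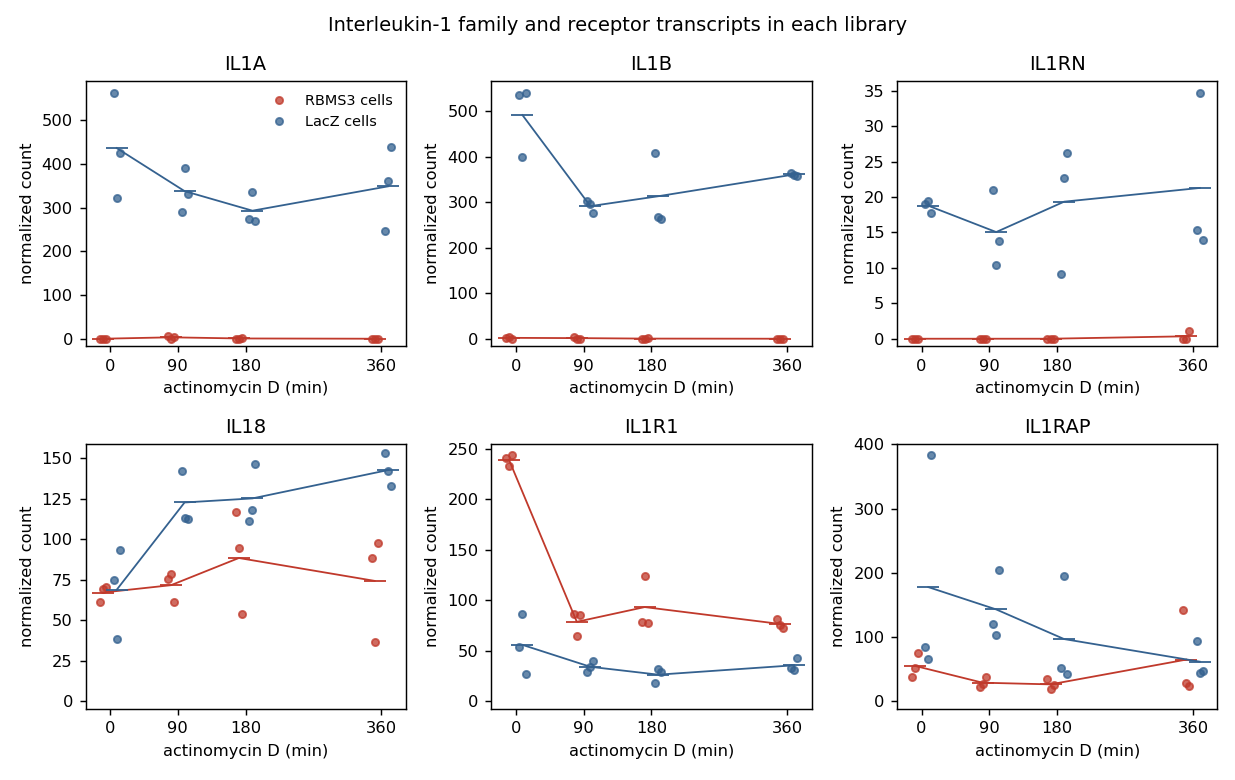
Normalized counts of the 6 members (vertical axes, linear from 0) against minutes of actinomycin D (horizontal axes); points are single libraries, RBMS3 cells in red drawn left of LacZ cells in blue, and bars joined by lines are means of 3 libraries. IL1A, IL1B and IL1RN lie at or near 0 in every RBMS3 library, IL1R1 is higher in RBMS3 libraries at each time and falls between 0 and 90 min, and IL1RAP has 1 LacZ library at 383.

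IL1A, the alarm cytokine of epithelia, was at 0 in all 3 RBMS3 libraries at 0 min, against 561, 323 and 424 in LacZ libraries. At 90 min it was 6.08, 0 and 3.62 in RBMS3 libraries and 289, 391 and 332 in LacZ libraries. At 180 min it was 0, 0 and 1.82 in RBMS3 libraries and 274, 336 and 269 in LacZ libraries. At 360 min the RBMS3 libraries were again all at 0, and the LacZ libraries were at 246, 359.8 and 439. No RBMS3 library came near the lowest LacZ library at any time. Against a floor of 3 reads per RBMS3 library, averaged over the group, IL1A in RBMS3 cells was at least 146-fold lower at 0 min; at 360 min it was at least 117-fold lower. Floors cover counting error only. In limma the RBMS3 minus LacZ difference was −8.73 ± 0.53 (SE) at 0 min (adjusted p = 4.0e-11), −6.71 at 90 min, −7.69 at 180 min and −8.41 at 360 min, with adjusted p-values of at most 3.1e-09. The size of such a fitted difference depends on the added 1 when a group is at 0. In bulk libraries, fewer expressing cells and less RNA per cell cannot be told apart.

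IL1B, the cytokine cut by caspase-1, was 1.07, 4.71 and 0 in RBMS3 libraries at 0 min, against 534, 399.7 and 539 in LacZ libraries. At 90 min it was 4.05, 0 and 0 in RBMS3 libraries and 302, 295 and 276 in LacZ libraries. At 180 min it was 0, 0 and 0.908 in RBMS3 libraries and 408, 267 and 264 in LacZ libraries. All 3 RBMS3 libraries were at 0 at 360 min, when LacZ libraries held 364, 360.2 and 358, at least 121-fold lower in RBMS3 cells. Every LacZ library thus exceeded every RBMS3 library by a wide margin. The limma difference was −7.74 ± 0.56 (SE) at 0 min (adjusted p = 6.4e-10), −7.41 at 90 min, −7.95 at 180 min and −8.50 at 360 min. IL1A and IL1B kept these calls under all 17 other settings tried for each time.

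IL1RN, the receptor antagonist, was at 0 in 11 of 12 RBMS3 libraries, and the remaining one, replicate 3 at 360 min, held 1.03. LacZ libraries held 19.1, 19.5 and 17.8 before treatment and 21.0, 10.4 and 13.7 after 90 min. After 180 min they held 9.12, 22.7 and 26.2, and after 360 min 15.3, 34.6 and 13.9. The groups did not overlap at any time. Against the floor of 3 reads per library, IL1RN was at least 6.27-fold lower in RBMS3 cells at 0 min, 5.92-fold at 90 min and 5.78-fold at 180 min. It entered no test at the set minimum mean; with no filter, limma gave −4.30 ± 0.52 (SE) at 0 min (adjusted p = 2.0e-06), −3.95 at 90 min, −4.22 at 180 min and −4.02 at 360 min. Both agonists and their antagonist were therefore low in the same libraries.

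IL18, unlike the other ligands, was present in both lines. At 0 min it was 61.5, 69.2 and 70.7 in RBMS3 libraries and 74.9, 38.3 and 93.3 in LacZ libraries, and the groups overlapped. The difference was 0.05 ± 0.34 (SE), with a 95% interval of −0.66 to 0.76 and a limma adjusted p of 0.92. At 90 min it was 75.5, 78.4 and 61.2 in RBMS3 libraries and 142, 113 and 113 in LacZ libraries, which did not overlap, yet the difference of −0.77 did not pass (limma adjusted p = 0.099). In a fit of those 6 libraries alone it did pass (limma adjusted p = 0.029). At 180 min the values were 117, 94.8 and 54.0 in RBMS3 libraries and 111, 118 and 147 in LacZ libraries, a difference of −0.56 (limma adjusted p = 0.23). At 360 min IL18 was 88.7, 36.9 and 97.4 in RBMS3 libraries and 153, 142 and 133 in LacZ libraries, a difference of −1.05 ± 0.34 (SE, limma adjusted p = 0.021). That call rested on single libraries: without RBMS3 replicate 2 at 360 min the difference was −0.61 (limma adjusted p = 0.16), and without LacZ replicate 1 at 360 min it was −0.996 (0.061). In a fit of the 6 libraries compared, its limma adjusted p was 0.060.

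IL1R1, the receptor that both agonists and the antagonist bind, was 241, 233 and 243 in RBMS3 libraries at 0 min and 53.8, 86.8 and 27.1 in LacZ libraries. At 90 min it was 86.0, 64.3 and 85.8 in RBMS3 libraries and 28.98, 33.8 and 39.9 in LacZ libraries. At 180 min the RBMS3 libraries held 78.5, 124 and 77.7 and the LacZ libraries 18.1, 31.9 and 29.3. At 360 min the RBMS3 libraries held 81.3, 75.9 and 72.4 and the LacZ libraries 33.3, 30.9 and 43.0. Each RBMS3 library exceeded each LacZ library of its time. The RBMS3 mean was 4.28-fold the LacZ mean at 0 min, 2.30-fold at 90 min, 3.53-fold at 180 min and 2.14-fold at 360 min. The limma differences were 2.23 ± 0.32 (SE, adjusted p = 1.2e-05), 1.18 (0.0081), 1.79 (0.00019) and 1.09 (0.012) at these times. These calls also held in all 17 other settings for each time.

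IL1RAP, the accessory chain, spread widely between libraries of a group. At 0 min it was 38.4, 51.8 and 75.8 in RBMS3 libraries and 84.1, 66.6 and 383 in LacZ libraries. At 90 min it was 21.9, 27.3 and 38.1 in RBMS3 libraries and 121, 104 and 205 in LacZ libraries, with no overlap. At 180 min it was 34.8, 19.2 and 25.5 in RBMS3 libraries and 52.6, 196 and 42.5 in LacZ libraries. At 360 min it was 143, 28.98 and 23.2 in RBMS3 libraries and 94.2, 43.5 and 47.8 in LacZ libraries, and the groups overlapped. The difference passed at 90 min (−2.23 ± 0.67 SE, limma adjusted p = 0.015) but not at 0 min (−1.26, 0.15), 180 min (−1.53, 0.088) or 360 min (−0.33, 0.75). The call at 90 min ended without LacZ replicate 3 (limma adjusted p = 0.067) or RBMS3 replicate 1 (0.056) of that time. Without LacZ replicate 3 the difference at 0 min was −0.48, and at 360 min it was −1.13 without RBMS3 replicate 1 and 0.15 without RBMS3 replicate 3.

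**Figure D2:**
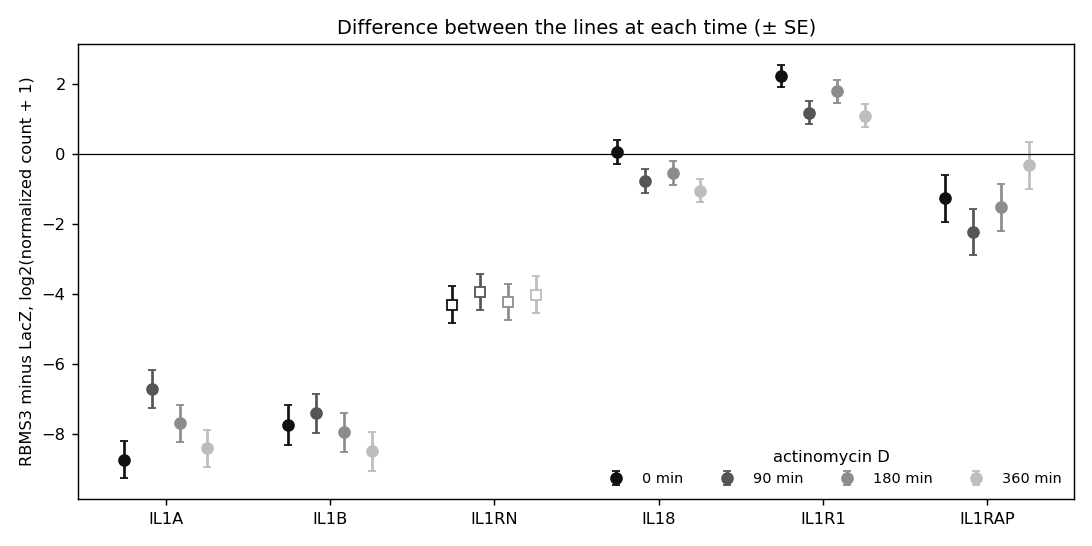
RBMS3 minus LacZ difference in log2(normalized count + 1) for each member (vertical axis) at 4 times of actinomycin D (dark to light, left to right); points are limma estimates, bars are SE, and open squares mark IL1RN, fitted with no filter on low values. IL1A, IL1B and IL1RN lie far below 0 at every time, IL1R1 lies above 0 at every time, and IL18 is at 0.05 at 0 min and −1.05 at 360 min.

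The deposited table and the authors' estimated reads were compared in the 12 libraries whose transcript file was undisputed, namely RBMS3 cells at 90, 180 and 360 min and LacZ cells at 0 min. For IL1A the ratio of table value to scaled reads was 1.00 to 1.03 where there were enough reads, for IL1B 1.01 to 1.02, and for IL18 0.925 to 1.04. For IL1R1 it was 0.895 to 2.31, with the highest in LacZ replicate 2 at 0 min, where 37.1 reads became 86.8. For IL1RAP it was 0.580 to 3.62, and the 2 highest were LacZ replicate 3 at 0 min (109 reads, table value 383) and RBMS3 replicate 1 at 360 min (47 reads, table value 143). Scaled to library depth (RPM), IL1RAP was 3.69, 6.02 and 6.22 in RBMS3 libraries after 90 min, 6.19, 3.61 and 5.87 after 180 min, 5.36, 5.24 and 4.10 after 360 min, and 11.0, 8.51 and 16.3 in LacZ libraries at 0 min. On that scale neither extreme table value stood as far from its group. The part of this factor in the IL1R1 and IL1RAP results was not tested. The reads behind the near-zero IL1A values were 6, 0 and 5 in RBMS3 libraries at 90 min, against 677, 315 and 429 in LacZ libraries at 0 min.

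**Figure D3:**
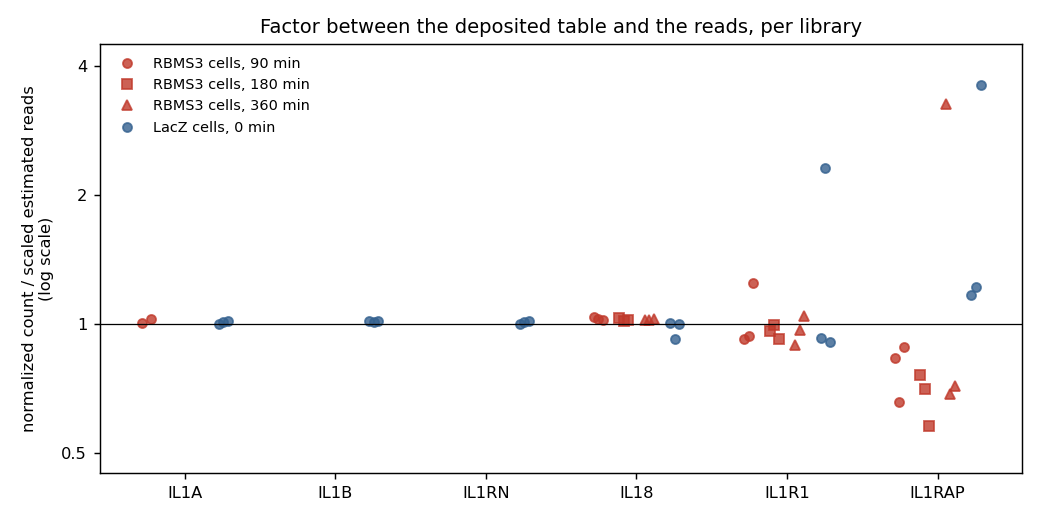
Ratio of the deposited normalized count to the estimated reads scaled by the library's value of 1 read (vertical axis, log scale) for each member with enough reads; each point is 1 of 12 libraries, red for RBMS3 cells by time and blue for LacZ cells at 0 min. Points of IL1A, IL1B, IL1RN and IL18 lie near 1, IL1R1 has 1 LacZ library at 2.31, and IL1RAP spans 0.580 to 3.62.

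The reads of IL1RAP fell on transcripts with different coding ends. IL1RAP-201 encodes 570 codons, the length of the membrane chain, and IL1RAP-209 encodes 356 codons, the length of the soluble form. RBMS3 libraries had 6, 27.3 and 24.9 estimated reads of IL1RAP-201 and 20, 22.7 and 7.49 of IL1RAP-209 at 90 min. At 180 min they had 0, 10 and 38 of IL1RAP-201 and 20, 0 and 0 of IL1RAP-209, and replicate 1 had 38 of IL1RAP-211, which also has 570 codons. At 360 min they had 28, 20.3 and 14.2 of IL1RAP-201 and 14, 20.7 and 17.8 of IL1RAP-209. LacZ libraries at 0 min had 59.3, 41.1 and 58.5 of IL1RAP-201 and 12.5, 7.94 and 30.2 of IL1RAP-209. IL1RAP-210, a shorter coding transcript of 215 codons, had 28.6 of the 61 reads in RBMS3 replicate 3 at 90 min. It had 6 and 11 in RBMS3 replicates 2 and 3 at 180 min, 13.2 in LacZ replicate 1 at 0 min, and none in the remaining libraries. IL1RAP-218, a transcript with no coding sequence, had 2, 1 and 13 reads in LacZ libraries at 0 min. In RBMS3 cells it had 5 reads in replicate 1 at 360 min and none elsewhere. Its 13 and 5 reads lay in the libraries with the highest ratios of table value to reads, and a link was not tested. The times differ between the lines, so these values are given side by side without a comparison.

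Within RBMS3 cells, IL1R1 fell in the first 90 min, and no further change was called. Its means were 239 ± 5.56 at 0 min, 78.7 ± 12.5 at 90 min, 93.3 ± 26.2 at 180 min and 76.5 ± 4.48 at 360 min (SD, n = 3). The change from 0 min was −1.60 ± 0.32 (SE) at 90 min (limma adjusted p = 0.0017), −1.38 at 180 min (0.0031) and −1.63 at 360 min (0.00043). From 90 to 360 min it was −0.03, with a 95% interval of −0.70 to 0.64 (limma adjusted p = 0.97). On the estimated reads, edgeR's quasi-likelihood test gave 0.00085 for that interval of time (adjusted p = 1.0). A straight line over all 4 times gave −0.21 per hour (limma adjusted p = 0.0024), and over the 3 later times −0.017 per hour (0.91). Of the 6 epithelial markers, 2 were also called lower at 90 than at 0 min in RBMS3 cells, and 1 (LAMB3) was called higher. KRT14 averaged 6059 at 0 min, 791 at 90 min and 1184 at 360 min, and KRT5 averaged 2652, 714 and 1033. Only the 0 min libraries were untreated, and the part of RNA loss in such an early step was not tested. In LacZ cells IL1R1 averaged 55.9 ± 29.9 at 0 min, 34.2 ± 5.48 at 90 min, 26.4 ± 7.30 at 180 min and 35.7 ± 6.40 at 360 min (SD, n = 3). No LacZ change from 0 min passed, the nearest being −0.94 at 180 min (limma adjusted p = 0.055), which passed without LacZ replicate 3 at 0 min (−1.38, 0.0037). Without that library the LacZ changes at 90 min (−0.99, limma adjusted p = 0.042) and 360 min (−0.93, 0.023) passed as well.

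Counts of members past the test within a line were small, and some of those in RBMS3 cells hold IL1A at values near 0, as described below. In RBMS3 cells at 90 against 0 min, limma called 1 member higher and 1 lower (14.5% of all tested genes were called, 7.99% higher and 6.52% lower). Against 0 min, 1 member was lower at 180 min (25.9% called, 13.5% higher and 12.4% lower) and 1 at 360 min (37.6% called, 19.1% higher and 18.6% lower). At 360 against 90 min 1 was lower (16.0% called, 7.62% higher and 8.35% lower), and 1 had a slope past the test (36.6% called). IL1R1 was the lower one in the comparisons with 0 min. The other RBMS3 calls were IL1A at 90 against 0 min (1.68, limma adjusted p = 0.038) and at 360 against 90 min (−1.68, 0.035), both from the 6, 0 and 5 reads at 90 min. Leaving out replicate 1 or 3 at 90 min, or any 1 of the 3 libraries at 0 min or at 360 min in the comparison that holds it, ended those calls (limma adjusted p 0.072 to 0.22). The IL1B change of −1.19 at 360 against 0 min in RBMS3 cells did not pass (limma adjusted p = 0.10), but did without replicate 3 at 0 min (−1.78, 0.019). IL1A and IL1B reached the minimum mean over all libraries only through the LacZ libraries. In RBMS3 libraries IL1A was at most 6.08 and IL1B at most 4.71. Their tests within RBMS3 cells thus compare a few reads with values at or near 0, and no change is read from them. RBMS3 values of IL1A and IL1B this close to 0 leave loss with time not detectable at this depth.

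In LacZ cells limma called no member at 90 min against 0 min (6.18% of all tested genes were called, 3.44% higher and 2.74% lower, and 1 member had an unadjusted p under 0.05) or at 180 min (14.6%, 2 members). At 360 min it called 1 higher (28.5%; 14.9% higher, 13.6% lower), and at 360 against 90 min none (8.50%, 0 members with an unadjusted p under 0.05). The higher one was IL18, at 143 ± 10.2 at 360 min and 68.8 ± 28.0 at 0 min (SD, n = 3), a change of 1.13 ± 0.34 (SE, limma adjusted p = 0.017). Its slope was 0.16 per hour (limma adjusted p = 0.033, with 27.1% of all tested genes called). That slope did not pass in 8 of 24 other settings: 0.075 per hour with ribosomal scaling, 0.052 over the 3 later times, 0.11 without LacZ replicate 2 at 0 min and 0.15 to 0.17 without any 1 of the LacZ libraries at 360 min among them (limma adjusted p 0.065 to 0.77). The change was 0.76 without LacZ replicate 2 at 0 min (limma adjusted p = 0.11) and 1.08 without LacZ replicate 1 at 360 min (0.051). Scaled to the ribosomal protein genes, it was 0.61 (limma adjusted p = 0.17), and the median of all genes moved to −0.49. A higher value under blocked transcription is a higher share of the library, because the amount of RNA in a cell went unmeasured.

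In LacZ cells IL1A and IL1B were still measured after 360 min of blocked transcription. IL1A averaged 436 ± 119.7 at 0 min, 337 ± 51.3 at 90 min, 293 ± 37.4 at 180 min and 348 ± 97.0 at 360 min (SD, n = 3). IL1B averaged 491 ± 79.1 at 0 min, 291 ± 13.2 at 90 min, 313 ± 82.0 at 180 min and 361 ± 3.04 at 360 min. The changes at 360 min were −0.33 for IL1A (limma adjusted p = 0.70) and −0.43 for IL1B (0.62). Scaled to the ribosomal protein genes, they were −0.85 (limma adjusted p = 0.22) and −0.96 (0.19), so the size of the change depends on the scaling. The SE of these tests, 0.53 and 0.56, is shared with the RBMS3 libraries, where values of 0 to 6.08 vary widely on a log scale. In a fit of the 12 LacZ libraries alone, IL1B was lower at 180 min (−0.67 ± 0.18 SE, limma adjusted p = 0.038), and not past the test at 90 min (−0.74, 0.056) or 360 min (−0.43, 0.10). IL1A did not pass at any time in that fit (limma adjusted p 0.19 to 0.49). NFKBIA, which encodes an inhibitor of NF-kB, fell by 5.48 on the log2 scale at 360 min in LacZ cells (24.02 ± 2.00 at 360 min and 1141 ± 286 at 0 min, limma adjusted p = 2.8e-10).

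**Figure D4:**
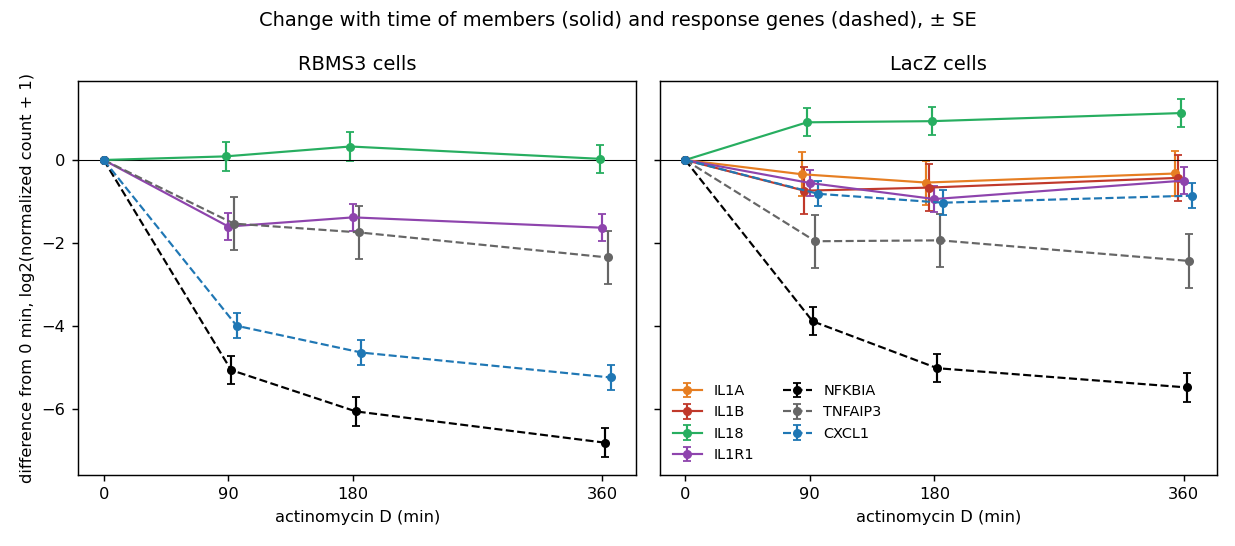
Change from 0 min in log2(normalized count + 1) (vertical axis) against minutes of actinomycin D, for RBMS3 cells on the left and LacZ cells on the right; solid lines are members, dashed lines are NF-kB response genes, points are limma estimates and bars are SE, drawn slightly apart. IL1A and IL1B are not drawn for RBMS3 cells, where they are near 0; at 360 min in LacZ cells they are at −0.33 and −0.43, and NFKBIA is at −5.48.

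The difference between the lines in these changes was tested itself. No member passed for 90 against 0 min (5.23% of all tested genes were called in limma, and 2 members had an unadjusted p under 0.05), 360 against 0 min (7.77%, 2 members), 360 against 90 min (0.00827%, 1 member) or the slope over 4 times (5.18%, 0 members). For IL1R1, RBMS3 minus LacZ, the difference was −1.05 at 90 min (limma adjusted p = 0.22) and −1.14 at 360 min (95% interval −2.09 to −0.19, 0.14). Without LacZ replicate 2 at 0 min, the library whose table value was 2.31 times its scaled reads, these were −1.44 (limma adjusted p = 0.046) and −1.52 (0.025). For IL18 the difference at 360 min was −1.10 (limma adjusted p = 0.19). For IL1A at 90 min it was 2.02 (limma adjusted p = 0.14), which passed without RBMS3 replicate 2 at 90 min (2.86, 0.0054). RBMS3 values of IL1A were at most 6.08, so no difference in its change is read from this.

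The rest of the ligand and receptor genes were mostly silent. Of 11 ligand genes listed, 3 were tested, and of 9 receptor genes likewise 3. IL33, IL36A, IL36B, IL1F10 and IL18RAP, which encode 4 further ligands and a receptor chain of interleukin-18, were listed at 0 in all 24 libraries. IL36G reached 0.988 in a single LacZ library, and IL36RN was at 0 in all RBMS3 libraries and at most 4.48 in LacZ libraries. IL37 was at most 3.79 in RBMS3 libraries and 8.18 in LacZ libraries, and IL1RL1, the interleukin-33 receptor, at most 5.16 in RBMS3 libraries and 9.16 in LacZ libraries. IL1R2, a decoy receptor that binds interleukin-1 without signalling, was 0 to 6.35 in RBMS3 libraries with a median of 0, and 7.60 to 24.5 in LacZ libraries with a median of 13.7. IL1RL2, the interleukin-36 receptor, was 6.60 to 34.6 in RBMS3 libraries with a median of 14.5, and 0 to 8.90 in LacZ libraries with a median of 1.72. IL18R1 and IL18BP, an interleukin-18 receptor chain and its soluble inhibitor, had medians of 0 and 6.50 over RBMS3 libraries and of 2.25 and 2.65 over LacZ libraries. All of these were under the minimum mean and were not tested. SIGIRR, a negative regulator of the receptor family, was tested and not past the test at 0 min (0.22, limma adjusted p = 0.47) or 360 min (0.31, 0.28).

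Among 15 genes of precursor processing and release, 12 were tested, of which 1 was higher and 4 lower in RBMS3 cells before treatment (18.6% of all tested genes were higher and 18.9% lower). Their median difference was −0.20, beside 0.0065 over all tested genes. NLRP3, a sensor that activates caspase-1, was 10.5 ± 3.52 in RBMS3 cells, against 74.5 ± 25.0 in LacZ cells (−2.69, limma adjusted p = 0.00011). GSDME, a pore-forming gasdermin, was 102 ± 24.7 in RBMS3 cells, against 276 ± 44.6 in LacZ cells (−1.45, limma adjusted p = 6.4e-07). CAPN1 and CAPN2, calpain proteases of the kind that cut the interleukin-1 alpha precursor, differed by −0.60 and −0.47 at 0 min (limma adjusted p = 0.00035 and 1.6e-05). CAPN2 was instead higher in RBMS3 cells at 180 min (0.30, limma adjusted p = 0.0023) and 360 min (0.23, 0.014). Neither passed with ribosomal scaling (0.18 with limma adjusted p = 0.069 at 180 min, 0.069 with 0.50 at 360 min), nor did the difference at 360 min without RBMS3 replicate 3 (0.051). CASP1 itself was 84.6 ± 57.5 in RBMS3 cells, against 48.0 ± 13.2 in LacZ cells at 0 min and was not called. At 90 min it was lower, at 22.1 ± 6.07 in RBMS3 cells, against 64.6 ± 14.7 in LacZ cells (−1.52, limma adjusted p = 0.018), which did not pass without LacZ replicate 1 or 2 or RBMS3 replicate 2 of that time (0.055 to 0.085). At 360 min 1 was higher and 4 were lower (17.5% and 17.7% of all tested genes), with a median of −0.30, beside −0.015 over all tested genes. GSDMD, the gasdermin cut by caspase-1, was then lower (70.5 ± 31.7 in RBMS3 cells, against 129 ± 12.5 in LacZ cells, −0.97, limma adjusted p = 0.013), though not without RBMS3 replicate 3 (−0.56, 0.12). In a fit of the groups compared alone GSDMD did not pass (limma adjusted p = 0.074).

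Of 19 genes that signal below the receptor, 17 were tested. In RBMS3 cells 1 was higher and 3 were lower at 0 min (median 0.05; 37.5% of all tested genes called), 3 higher and 2 lower at 90 min (median −0.06; 29.8%), and 2 higher and 0 lower in limma at 180 min (median 0.15; 33.1%) and at 360 min (median 0.11; 35.2%). IRAK1, a kinase of the receptor complex, was 819 ± 14.8 in RBMS3 cells, against 1429 ± 284 in LacZ cells at 0 min (−0.79, limma adjusted p = 8.6e-06). IKBKG, the regulatory subunit of the NF-kB kinase, was 145 ± 40.6 in RBMS3 cells, against 242 ± 18.5 in LacZ cells (−0.77, limma adjusted p = 0.0039; 0.065 in a fit of these 6 libraries alone). TAB3, an adaptor of the TAK1 kinase, was also lower (−1.49, limma adjusted p = 0.025), but −0.97 without LacZ replicate 1 (0.15), and it did not pass without RBMS3 replicate 1 (0.055) or 3 (0.093) either. Nor did TAB3 pass in a fit of the 6 libraries alone (limma adjusted p = 0.083). UBE2V1, a ubiquitin-conjugating cofactor, was higher by 0.31 (limma adjusted p = 0.026), but by 0.014 when scaled to the ribosomal protein genes, and it did not pass without LacZ replicate 1 or 2 or RBMS3 replicate 1 or 2 (0.056 to 0.19). In a fit of the 6 libraries alone UBE2V1 did not pass either (limma adjusted p = 0.18). TOLLIP, an adaptor that dampens receptor signalling, was 426 ± 99.8 in RBMS3 cells, against 182 ± 44.6 in LacZ cells at 360 min (1.23, limma adjusted p = 0.00012). IKBKB, a catalytic subunit of the NF-kB kinase, was higher at 360 min too (1.55, limma adjusted p = 0.037), a call that ended on leaving out LacZ replicate 1 or 3 or RBMS3 replicate 1 or 2 of that time (0.068 to 0.12). The IKBKB call also ended with no filter (limma adjusted p = 0.060) and with ribosomal scaling (0.058).

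Of 19 known targets of interleukin-1, 14 were tested. In RBMS3 cells 1 was higher and 4 lower at 0 min (median −0.29, beside 0.0065 over all tested genes). Of all tested genes 18.6% were higher and 18.9% lower. Only the 5 called in either direction were a share near the 37.5% of all tested genes. Later 1 was higher and 8 lower at 90 min (median −1.57; 14.9% and 15.0% of all tested genes), 1 and 7 at 180 min (median −1.08; 16.2% and 16.8%), and 1 and 8 at 360 min (median −1.58; 17.5% and 17.7%). ICAM1, an adhesion molecule for leukocytes, was 11.4 ± 4.97 in RBMS3 cells, against 90.2 ± 32.0 in LacZ cells at 0 min (−2.91, limma adjusted p = 0.00034), and 2.01 ± 2.72 in RBMS3 cells, against 104 ± 17.0 in LacZ cells at 360 min (−5.51). PTGS2, the inducible cyclooxygenase, was 7.31 ± 2.73 in RBMS3 cells, against 56.0 ± 17.9 in LacZ cells at 0 min (−2.78, limma adjusted p = 0.00039). TNFAIP3, a deubiquitinase that limits NF-kB, was 62.4 ± 13.5 in RBMS3 cells, against 272 ± 64.0 in LacZ cells at 0 min (−2.10, limma adjusted p = 0.013). Its difference at 360 min (−2.02, limma adjusted p = 0.018) did not pass without LacZ replicate 1 (0.078) or RBMS3 replicate 3 (0.062) of that time. MMP1, a collagenase, was the higher one, at 92.0 ± 17.1 in RBMS3 cells, against 20.2 ± 7.04 in LacZ cells at 0 min (2.18, limma adjusted p = 2.2e-05) and at 132 ± 25.7 in RBMS3 cells, against 17.0 ± 1.51 in LacZ cells at 360 min.

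The chemokine transcripts CXCL1 and CXCL3 did not pass between the lines before actinomycin D and were lower in RBMS3 cells at 360 min. CXCL1 was 491 ± 21.0 in RBMS3 cells, against 356 ± 100 in LacZ cells at 0 min (0.51, limma adjusted p = 0.21), and 12.1 ± 2.27 in RBMS3 cells, against 190.0 ± 14.1 in LacZ cells at 360 min (−3.88, 2.6e-09). CXCL3 was 86.6 ± 7.26 in RBMS3 cells, against 67.9 ± 21.7 in LacZ cells at 0 min (0.39, limma adjusted p = 0.57), and 1.43 ± 1.25 in RBMS3 cells, against 33.7 ± 8.16 in LacZ cells at 360 min (−3.98, limma adjusted p = 1.5e-06). Within RBMS3 cells, 10 of the 14 targets were lower at 90 min than at 0 min and 11 at 360 min, with 6.52% and 18.6% of all tested genes lower. Within LacZ cells, 3 were lower at 90 min and 7 at 360 min, with 2.74% and 13.6% of all tested genes lower; none was higher in limma in either line. The LacZ count at 90 min ranged from 1 to 8 over other settings, with 1 without LacZ replicate 1 at 90 min, 5 with a replicate block and 8 with ribosomal scaling. At 360 min NFKBIA fell by 6.81 in RBMS3 cells and fell by 5.48 in LacZ cells. ZC3H12A, an RNase that cuts cytokine messages, fell by 4.08 in RBMS3 cells (limma adjusted p = 0.0024) and fell by 4.06 in LacZ cells (0.0035). It ended at 3.36 ± 3.17 in RBMS3 cells and 4.93 ± 4.45 in LacZ cells. CSF3, a granulocyte growth factor, fell by 3.29 in RBMS3 cells (limma adjusted p = 0.0015) and fell by 2.99 in LacZ cells (0.0047). It ended at 2.30 ± 2.09 in RBMS3 cells and 7.79 ± 3.28 in LacZ cells. The floor of 3 reads averaged 2.97 in RBMS3 libraries at 360 min. The sizes of these falls therefore depend on the starting level and the added 1, and do not compare loss between the lines.

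**Figure D5:**
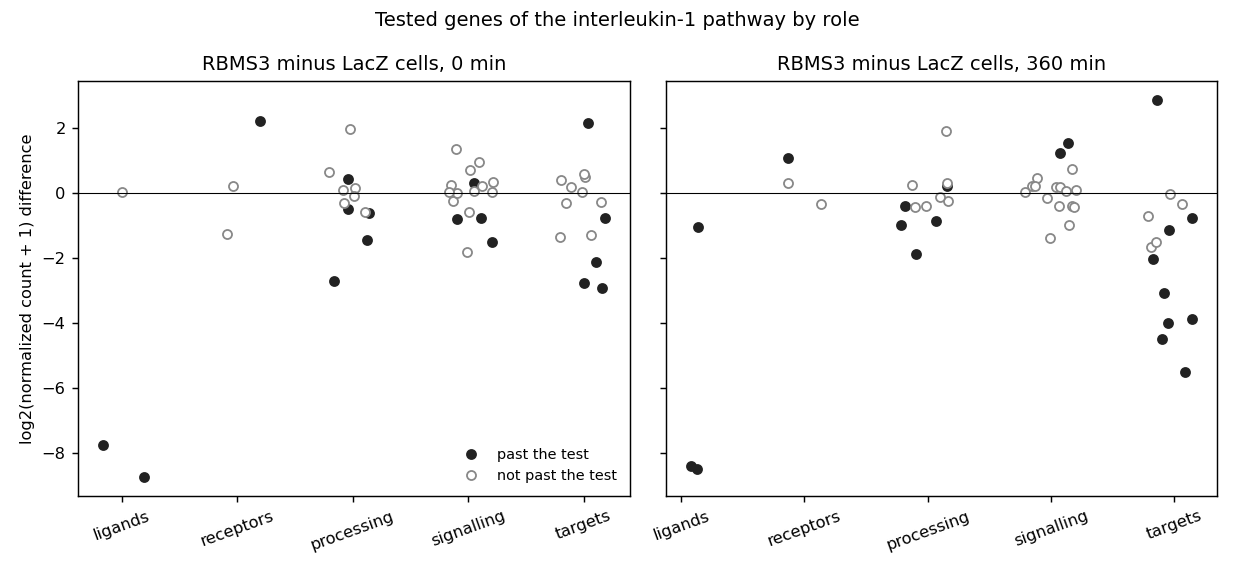
RBMS3 minus LacZ difference in log2(normalized count + 1) (vertical axis) for each tested gene of 5 pathway roles (horizontal axis, points spread sideways) at 0 min on the left and 360 min on the right; filled points passed the limma test and open points did not. IL1A and IL1B are the lowest points of both panels, and below 0 there are 8 filled targets at 360 min and 4 at 0 min.

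Over the 24 libraries, the genes most like each member were found by Pearson r of log2(normalized count + 1) among 9097 other tested genes with a mean of at least 50. These correlations describe libraries that share line and time, and carry no p. The genes nearest to IL1A were ESRP1, an epithelial splicing regulator (r = 0.990), AP1M2, a sorting adaptor of polarized epithelia (0.989), and CLDN4, a tight junction protein (0.989). The same genes were nearest to IL1B, with r of 0.994 for CLDN4, 0.989 for ESRP1 and 0.988 for AP1M2. Nearest to IL1RN were the chloride channel ANO1 (0.988), TMEM30B (0.982) and the protease KLK5 (0.982). IL1R1 was nearest to the glycosyltransferase GCNT1 (0.895), TSHZ1 (0.894) and HOXC6 (0.891). IL18 and IL1RAP had looser neighbours, led by the proteasome subunit PSMA3 (0.833) and by GPSM2 (0.762). IL1A and IL1B correlated at 0.982 over all 24 libraries and at 0.521 within the 12 LacZ libraries, and IL1A and IL1RN at 0.962 and 0.008 over the same libraries.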

How the data were processed

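Trim Galore 0.6.6, DESeq2 1.32.0 and Salmon 1.4.0 are named, per the submitters' processing notes, and their build and annotation were not given in the sources used here. Deposited files hold, as the authors deposited them, a normalized signal (the normalized count) for 38849 genes in 24 libraries, and estimated counts per transcript for each library, per the file headers. The normalized counts were taken as deposited. The record and the name of a transcript file disagreed for 12 of 24 samples, so estimated counts, summed over genes and rounded for count tests, were used only from the other 12. The test was limma 3.58.1 under R 4.3.3, without the robust option and with the trend, applied to log2(normalized count + 1). A single model held the means of the 8 groups, and p-values were Benjamini-Hochberg adjusted over the 12096 genes whose mean reached 10. An adjusted p under 0.05 passed. Such differences understate changes of low genes. The scripts were tested on simulated data. edgeR 4.0.16 and DESeq2 1.42.0 compared RBMS3 cells at 360 and 90 min on the estimated counts. Alternatives were the pseudocount, the filter, 3 scalings, limma's settings, subsets of groups, a replicate block and leaving out each library. The members, gene lists and naming rule were chosen with earlier results of these data known. The rule names all members and RBMS3, up to 4 genes of a list and comparison that passed with the largest difference where the higher group averaged 50 or more, and the 3 most alike genes of each member. CASP1, SIGIRR, PYCARD and the silent family genes are named beside it.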

Additional observations from a re-analysis of the deposited data

Results flagged for a closer look

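The change from 0 min differed between the lines, by a limma test of the difference itself, in 8 pathway genes. At 90 min these were 3 of 12 processing, 2 of 17 signalling and 2 of 14 target genes, with 5.23% of all tested genes called, and at 360 min 1, 2 and 2 of the same lists, with 7.77% called. Values are RBMS3 minus LacZ on the log2(normalized count + 1) scale, with Benjamini-Hochberg adjusted p-values from limma. CXCL1 fell further in RBMS3 cells, by −3.18 at 90 min (adjusted p = 0.00011) and −4.38 at 360 min (2.0e-06). CXCL3 differed by −2.62 at 90 min (limma adjusted p = 0.028) and −4.38 at 360 min (0.00033). CAPN2 differed by 0.63 at 90 min and 0.70 at 360 min (limma adjusted p = 0.00049 and 0.00012). IRAK1 differed by 0.94 and 1.00 at these times (limma adjusted p = 0.00084 and 0.00032). TOLLIP differed by 1.18 at 360 min (limma adjusted p = 0.020; 0.055 to 0.063 without LacZ replicate 2 or RBMS3 replicate 2 at 360 min or RBMS3 replicate 1 at 0 min). GSDME, IKBKG and PYCARD, the adaptor of inflammasomes, differed by 1.08, 1.33 and −0.74 at 90 min (limma adjusted p = 0.0082, 0.0060 and 0.037). The CXCL3 call at 90 min ended without LacZ replicate 2 or any RBMS3 library at 0 min, or without LacZ replicate 1 or 3 or RBMS3 replicate 1 or 3 at 90 min (limma adjusted p 0.052 to 0.070). With all libraries kept, the CXCL3 call ended with no filter (limma adjusted p = 0.069) and with a pseudocount of 0.5 (0.056). The PYCARD call ended without LacZ replicate 2 or RBMS3 replicate 1 or 3 at 0 min, or without LacZ replicate 1 or 2 or RBMS3 replicate 2 or 3 at 90 min (limma adjusted p 0.053 to 0.096), and was −0.51 with ribosomal scaling (0.12). It also ended with no trend (limma adjusted p = 0.055), no filter (0.056) and upper quartile scaling (0.0501).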

How the results depend on the processing

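Across 25 results on single members and 439 combinations with another setting, 402 kept direction and side of the threshold, 33 lost the call and 4 reversed. The reversals were IL18 at 0 min, not called, at −0.24 scaled to the ribosomal protein genes and −0.31 without LacZ replicate 2 of that time (−0.31 to 0.32 without single libraries), and IL1RAP at 360 min, not called, at 0.017 without LacZ replicate 1 and 0.15 without RBMS3 replicate 3 of that time (−1.13 to 0.15 without single libraries); the cause was not tested. Scaling to the ribosomal protein genes moved the median of all genes to −0.29 at 0 min and −0.17 at 360 min between the lines, and to −0.38 in RBMS3 and −0.49 in LacZ cells at 360 against 0 min; IL1A, IL1B and IL1R1 kept their line calls. Recomputed median-of-ratios size factors left every median and count of calls unchanged. The deposited counts were already on that scale, so this setting could not move a result. It is counted among the settings but is no separate check.

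Of the counts of members past the test, those between the lines kept within 1.5 times. In RBMS3 cells at 90 against 0 min, the 2 became 1 with a pseudocount of 5, with no filter and in a fit of that line alone, and 1 to 2 on leaving out single libraries. At 360 against 90 min the 1 became 0 in the same 3 settings and with edgeR and DESeq2 on the estimated counts, where IL1A had no adjusted p, and 0 to 1 without single libraries. Both of these counts include IL1A, whose RBMS3 values were near 0. The 1 for RBMS3 cells at 360 against 0 min and the 1 for their slope ranged from 1 to 2. In LacZ cells the 0 at 180 against 0 min became 1 with a mean of at least 50, with ribosomal or upper quartile scaling, with no trend (IL1R1 in these) and in a fit of that line alone (IL1B), and 0 to 2 without single libraries. The 0 at 90 min ranged from 0 to 1 and the 1 at 360 min from 0 to 2. The 1 for the LacZ slope became 0 with no filter, upper quartile scaling or the 3 later times, 2 with ribosomal scaling, and 0 to 2 without single libraries. For the line difference in the change, the 0 at 90 and at 360 against 0 min each ranged from 0 to 1. Among 47 pathway gene results in 849 combinations, 800 kept their call, 49 lost it and 0 reversed. Of the counts over the lists, that of targets in LacZ cells at 90 against 0 min moved by over 1.5 times in 5 of 17 settings (3, with 1 to 8), and that of targets whose change at 90 min differed between the lines in 11 of 22 (2, with 1 to 3). For signalling genes the counts between the lines moved in 2 of 17 settings at 0 min (4, with 2 to 5) and 5 of 17 at 360 min (2, with 1 to 2), and that of the difference in change at 360 min in 3 of 22 (2, with 1 to 3). The 5 processing genes at 360 min were 2 without RBMS3 replicate 3. With a minimum mean of 50, where fewer genes are tested, targets past the test in RBMS3 cells were 3 at 90 min and 4 at 360 min, against 10 and 11, and in LacZ cells 3 at 360 min, against 7.

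With the replicate number as a block, the counts of members past the test between the lines were 3, 4, 3 and 4 at the 4 times, as without the block, and no other count of members moved. No shared shift of same-numbered libraries was seen. Their deviations from group means correlated at a median of 0.0016, and 1 of 84 pairs exceeded 0.1. Libraries with different numbers had a median of −0.0028, and 2 of 168 pairs exceeded 0.1. Such correlations cannot show that the libraries were unpaired, and a pairing of cultures is not stated.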
